A study of Homo sapiens with 24 samples.

Results

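The chromatin regions described here were opened by dihydrotestosterone (DHT) in both the parental LNCaP cells and the enzalutamide (ENZ)-resistant subline RES-A. They were chosen by their calls in the DMSO and DHT libraries. In each of the 24 peak lists the 50000 peaks of highest pileup (the number of overlapping fragments at the summit) were kept, and the kept peaks of all lists were merged where they shared at least 1 bp. A region was selected when it was kept in at least 2 of 3 DHT libraries and in 0 of 3 DMSO libraries of LNCaP, and likewise in RES-A. This rule found 1044 shared regions among 117322 merged regions, or 0.890%. They were 21.0% of the 4977 regions opened by DHT in LNCaP and 14.8% of the 7046 opened in RES-A.

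LNCaP is an established human prostate cancer cell line that depends on androgens, and RES-A is a subline of it selected in the drug. Formaldehyde-assisted isolation of regulatory elements sequencing (FAIRE-seq), which recovers DNA that is poorly bound by histones, was performed in biological triplicate on both sublines. Cells were first kept for 3 days in RPMI with 5% DCC FBS, a serum stripped of steroids, and 10 µM ENZ was added to RES-A alone during this time. Treatment then lasted 18 h and consisted of the solvent DMSO as control, DHT at 10 nM, ENZ at 10 µM, or both agents at these doses (DHT+ENZ). The DMSO and DHT groups of RES-A were therefore also groups from which the drug had been withdrawn, so that subline and earlier drug exposure cannot be told apart. Only 1 resistant subline was included. The identity of the cells was not checked against marker genes, because the lists give hg19 positions and no hg19 annotation was used here.

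DHT is a potent androgen, the class of steroid hormones on which prostate cells depend, and ENZ is a drug that blocks the response to androgens. Hormones of this kind change gene activity largely through enhancers, stretches of regulatory DNA that often lie far from the genes they act on. When an enhancer becomes active its nucleosomes are lost or shifted, which FAIRE detects as open chromatin. Binding of transcription factors was not measured in these libraries.

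The 24 lists held between 73254 and 275774 peaks. A genome-wide background was recovered from the lists as a rank of depth and lay between 0.406 and 5.99 reads per base. Replicate 1 of LNCaP ENZ (0.406) and replicate 1 of LNCaP DHT (0.739) were far shallower than the remaining libraries (1.81 to 5.99). In these libraries the lowest kept pileup was only 6 and 8 fragments, and 12765 and 10672 peaks were tied at that value. To set libraries side by side, each pileup was divided by the median pileup of the same library at the 13124 regions kept in all 24 lists. This scaled pileup is given in percent, and on its scale a peak needed 45.3% to 57.1% to be kept.

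At the shared regions, DHT moved the signal from below to above the limit for being kept in both sublines, as the choice required. Of the 1044 regions, 414 were kept in all 6 DHT libraries, 478 in 5 and 152 in 4. In LNCaP, 74.4%, 89.5% and 88.2% of the shared regions were kept in the 3 DHT libraries. In RES-A these shares were 92.4%, 91.1% and 89.5%. The share in the DMSO libraries was 0 by the rule. These values chose the regions and are given as a description, with no test.

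A weaker peak was often listed at the shared regions without hormone. In the LNCaP DMSO libraries a deposited peak of any rank overlapped 70.3% to 96.2% of them, and 74.0% to 88.3% of all merged regions. In the RES-A DMSO libraries it overlapped 72.1% to 76.8% of them, less than the 80.9% to 82.8% of all merged regions. Only 19 shared regions had no peak at all in any DMSO library, whereas 509 had one in all 6. RES-A libraries had no DMSO peak at 160 shared regions and LNCaP libraries had none at 26. The median scaled pileup in DMSO was 35.5%, 35.1% and 35.9% in LNCaP and 27.0%, 25.8% and 27.0% in RES-A. With DHT it was 78.6%, 67.1% and 68.6% in LNCaP and 60.7%, 61.8% and 59.3% in RES-A.

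**Figure D1:**
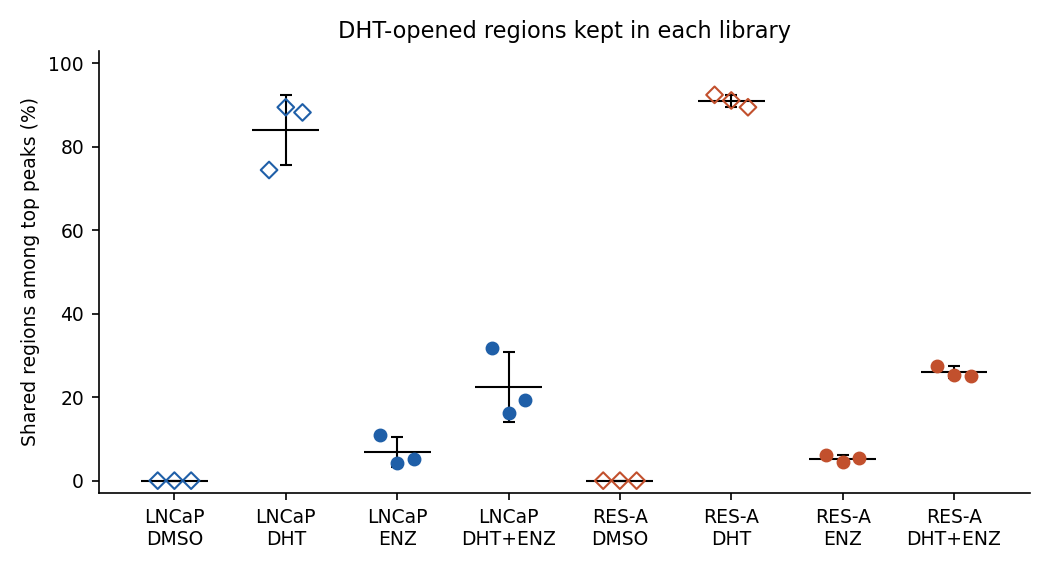
Share of the 1044 shared regions that lay among the 50000 strongest peaks (y axis, percent) in each of 24 libraries, by subline and treatment (x axis). Points are libraries, bars the mean and SD (n = 3). Open diamonds mark the DMSO and DHT libraries, which chose the regions. With DHT+ENZ the shares lay between 16.2% and 31.9%, above all ENZ libraries (4.21% to 11.0%) and below all DHT libraries.

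At the border of the rule, 1721 regions failed it by a single library, 743 of them because of a DMSO library and 978 because of a DHT library. Of the 152 regions kept in 4 DHT libraries, chr17:37365586-37365904 had the lowest mean pileup percentile over the libraries that kept it. It was kept in 2 of 3 DHT libraries of each subline. Its scaled pileup with DHT was 57.1%, 57.3% and 41.4% in LNCaP and 49.2%, 43.6% and 46.9% in RES-A. Among the 1721 regions, the one with the highest percentile by the same measure lay on an unplaced contig (GL000199.1:80571-80822), where 1 RES-A DMSO library reached 128% and barred it.

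The regions with the highest pileup rank in the DHT libraries show the range of responses. chr5:165489639-165490156 had a scaled pileup with DHT of 143%, 90.2% and 98.6% in LNCaP and 111%, 118% and 106% in RES-A. With ENZ alone it was at 54.5% and 32.9% in the 2 LNCaP libraries that listed a peak, and at 30.4%, 35.3% and 41.3% in RES-A. With DHT+ENZ it reached 60.3%, 51.1% and 73.5% in LNCaP and 78.6%, 77.8% and 72.2% in RES-A. In RES-A all DHT+ENZ values of this region lay between those with ENZ and those with DHT. In LNCaP all were below those with DHT, but 1 of them (51.1%) was below the higher ENZ value, so that ENZ and DHT+ENZ overlapped. That ENZ value came from the shallow library and equaled its limit for being kept (54.5%). The ENZ value of the deeper library (32.9%) lay below all DHT+ENZ values.

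chr10:21581529-21582657, the longest of the 8 strongest regions at 1129 bp, behaved differently. It had 100%, 106% and 95.7% with DHT in LNCaP and 116%, 105% and 100% in RES-A. With DHT+ENZ it reached 52.4%, 47.8% and 50.0% in LNCaP and only 35.7%, 37.5% and 41.8% in RES-A. With ENZ alone it was at 35.0% and 38.4% in the 2 LNCaP libraries with a peak and at 29.0%, 29.4% and 37.3% in RES-A. All DHT+ENZ values of this region were nearer to those with ENZ than to those with DHT.

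The other 6 of the 8 strongest regions were chr16:88110551-88111386, chr20:45947230-45947908, chr1:36627095-36627493, chr10:95155066-95155710, chr8:128255728-128256490 and chr3:105744764-105745253. All 8 were kept in all 6 DHT libraries by the choice. With DHT+ENZ, 6 of the 8 were kept in all 3 RES-A libraries, and chr16:88110551-88111386 in 2. In LNCaP none of the 8 was kept in all 3 libraries with DHT+ENZ, 4 were kept in 2 libraries and 1 in 1 library.

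The question put to the remaining libraries was how far ENZ held the shared regions closed in each subline, with and without DHT. These 12 libraries had no part in the choice. With ENZ alone, the shares of the shared regions kept were 11.0% (115 regions), 4.21% (44) and 5.27% (55) in LNCaP and 6.13% (64), 4.41% (46) and 5.36% (56) in RES-A. The highest of these came from the shallow LNCaP library. With DHT+ENZ, 31.9% (333 regions), 16.2% (169) and 19.3% (202) were kept in LNCaP. In RES-A with DHT+ENZ, 27.6% (288), 25.4% (265) and 25.1% (262) were kept. Since these are bulk libraries, opening in fewer cells and weaker opening in every cell cannot be told apart.

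In both sublines the kept share was higher when DHT was present beside ENZ. The mean in LNCaP was 6.83% ± 3.66 (SD, n = 3) with ENZ and 22.5% ± 8.31 with DHT+ENZ, a difference of 15.6 percentage points (3.29-fold). In RES-A it was 5.30% ± 0.864 and 26.0% ± 1.36, a difference of 20.7 points (4.91-fold). The DHT+ENZ and ENZ libraries did not overlap in either subline. Over all merged regions the kept share lay between 41.4% and 42.2% in all 24 libraries, since each list gave the same number of peaks. In both sublines the kept share with DHT+ENZ remained far below that with DHT alone, 84.0% ± 8.35 in LNCaP and 91.0% ± 1.49 in RES-A. The DHT shares were values that the choice had used, and the rule holds them high. This gap is therefore a description, and its size cannot be taken as the effect of ENZ.

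The sublines did not differ in these shares by more than the spread between libraries. RES-A minus LNCaP was 3.54 percentage points with DHT+ENZ and -1.53 points with ENZ, and the libraries of the sublines overlapped in both. The limit for being kept was higher in LNCaP on the scaled pileup. Its mean was 52.3% in LNCaP and 47.0% in RES-A with DHT+ENZ, and 51.7% and 46.3% with ENZ. Without the 2 shallow libraries, where 811 regions met the rule, the differences were -0.0822 and 0.308 points. Leaving out 1 library at a time moved the difference with DHT+ENZ between -2.28 and 8.25 points, and that with ENZ between -4.38 and 0.559 points, so that neither had a stable sign.

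Signal level showed the same order of treatments as the calls. The median scaled pileup with ENZ was 32.5% and 35.6% in the 2 deeper LNCaP libraries and 30.4%, 27.7% and 29.3% in RES-A. The shallow LNCaP library listed no peak at 850 of the shared regions, so its median of 54.5% covers only the strong ones. With DHT+ENZ the median was 44.4%, 42.4% and 44.1% in LNCaP and 37.1%, 38.2% and 40.5% in RES-A. All 6 DHT+ENZ medians lay above every ENZ median of the same subline, apart from that of the shallow library. A peak of any rank was present at 93.8% to 97.7% of the shared regions with DHT+ENZ, and at 82.0% to 87.2% of all merged regions. With ENZ it was present at 76.1% to 88.0% of the shared regions and at 81.7% to 85.6% of all merged regions, apart from the shallow library with 18.6% and 47.0%.

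**Figure D2:**
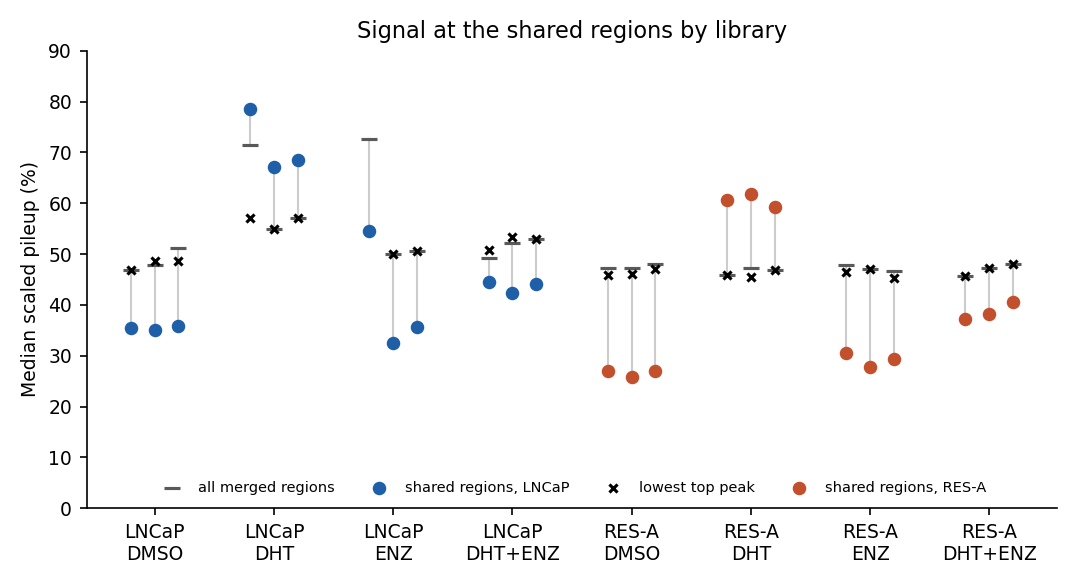
Median scaled pileup (y axis, percent of the library's median at the regions kept in all lists) of the shared regions (filled points) and of all merged regions (dashes) in each library, by subline and treatment (x axis). Crosses mark the lowest pileup that was kept, and medians cover only regions with a deposited peak. The shared regions lay above all merged regions with DHT, and below them with DMSO, ENZ and DHT+ENZ.

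The regions kept with DHT+ENZ were shared between the sublines in part. Of the 1044 shared regions, 394 (37.7%) were kept in 0 of the 6 DHT+ENZ libraries and 13 (1.25%) in all 6. Over all merged regions these shares were 31.6% and 21.4%. At least 2 of 3 libraries kept 191 regions in LNCaP and 262 in RES-A, and 69 regions met this in both, which was 36.1% of the LNCaP regions and 26.3% of the RES-A regions. Of all merged regions kept in this way, 67.7% of those in LNCaP and 67.4% of those in RES-A met it in both. All merged regions include the 13124 kept in all 24 lists, and the rule bars these from the shared regions. The lower shares of the shared regions therefore do not show that the sublines agreed less there. A full separation, 3 of 3 libraries in RES-A and 0 of 3 in LNCaP, was found at 64 regions (6.13%). It was found at 6.54% of all merged regions. The opposite separation held for 24 shared regions (2.30%) and for 5.98% of all merged regions. The first share was thus near the background and the second below it.

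With ENZ alone, 777 of the shared regions (74.4%) were kept in 0 of the 6 libraries and 0 regions in all 6. Over all merged regions the shares were 22.4% and 16.9%. Separation was found at 4 regions (0.383%) in favor of RES-A, against a background of 6.69%. In favor of LNCaP it was found at 2 regions (0.192%), against a background of 3.15%. A separated region must be kept in all 3 libraries of a subline, and few regions chosen as not kept in DMSO were kept with ENZ. The low shares therefore do not show how far the sublines agreed.

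**Figure D3:**
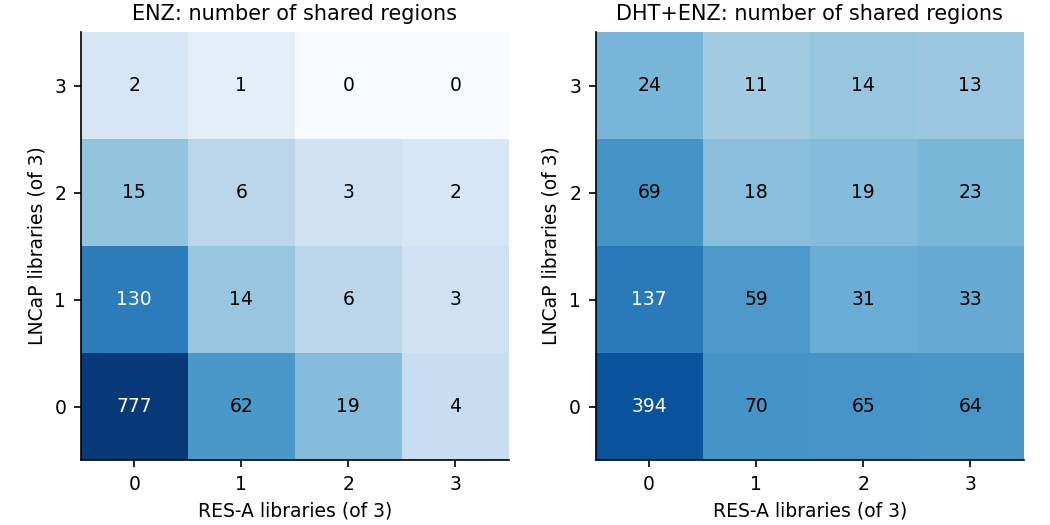
Number of shared regions by how many of 3 LNCaP libraries (y axis) and how many of 3 RES-A libraries (x axis) kept them, with ENZ (left) and DHT+ENZ (right). Shading follows log10 of the number plus 1. With ENZ 777 regions were kept in no library and with DHT+ENZ 394, while the corner of full agreement held 0 and 13 regions.

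Among the regions separated with DHT+ENZ, chr6:168815240-168815859 had a scaled pileup of 75.7%, 88.9% and 64.6% in RES-A and of 46.0%, 43.5% and 35.3% in LNCaP. With DHT alone this region was also stronger in RES-A, at 100%, 111% and 117%, than in LNCaP, at 42.9%, 61.0% and 58.6%. At chr17:79031229-79031637 the DHT+ENZ values were 72.9%, 98.6% and 75.9% in RES-A and 44.4%, 34.8% and 45.6% in LNCaP. The groups did not overlap at either region on this scale.

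In the opposite direction, chr13:42277268-42277764 had 71.4%, 69.6% and 72.1% with DHT+ENZ in LNCaP and 21.4%, 30.6% and 31.6% in RES-A. Its scaled pileup with DHT was also higher in LNCaP (92.9%, 102% and 78.6%) than in RES-A (52.5%, 41.8% and 50.6%). On fold enrichment over the local background the DHT values overlapped, at 4.84, 6.50 and 4.11 in LNCaP and 7.34, 5.32 and 6.31 in RES-A. chr18:7690224-7690837 had 87.3%, 53.3% and 76.5% with DHT+ENZ in LNCaP and 32.9%, 43.1% and 34.2% in RES-A. All 4 of these regions were among those chosen for their separation, and their values are a description.

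With ENZ alone, chr12:29878574-29879218 was kept in all 3 RES-A libraries and in no LNCaP library. Its scaled pileup was 59.4%, 57.1% and 57.3% in RES-A and 47.5% and 47.9% in the 2 LNCaP libraries with a peak. This was a small step across the limit rather than a region closed in LNCaP. The limit itself was 50% and 50.7% in these LNCaP libraries and 45.3% to 47.1% in RES-A, where the LNCaP values would have been kept. chr8:81933962-81934775 was kept in all 3 LNCaP libraries with ENZ, at 81.8%, 53.8% and 54.8%, while RES-A had 34.8%, 42.0% and 36.0%. The value of 81.8% came from the shallow library. On fold enrichment the sublines overlapped at this region, with 6.51, 6.41 and 5.34 in LNCaP and 5.70, 6.89 and 6.76 in RES-A.

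A set of 4 shared regions, picked after their values had been seen, was kept in all 6 DHT+ENZ libraries and in no ENZ library. At chr8:56882663-56883237 the scaled pileup with DHT+ENZ was 58.7%, 68.5% and 66.2% in LNCaP and 48.6%, 54.2% and 55.7% in RES-A. With ENZ it was 41.2% and 42.5% in the 2 LNCaP libraries with a peak and 26.1%, 33.6% and 34.7% in RES-A. The other 3 were chr5:127036065-127036429, chr3:176913465-176913819 and chr13:83639296-83639775.

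Calls per region were tested by Fisher's exact test over the 12 libraries, for the 40274 regions kept in 3 to 9 of them. Of the shared regions, 310 could be tested, 351 were kept in none of the 12 libraries, 380 in 1 or 2 and 3 in 10 or more. For DHT+ENZ against ENZ (6 against 6 libraries), 0 of 40274 regions passed an adjusted p of 0.05 (0%), and the smallest adjusted p was 1. At an unadjusted p under 0.05, 25 of the 310 shared regions were kept more often with DHT+ENZ (8.06%), beside 0.544% of all regions tested. None of the 310 was kept more often with ENZ at that level, beside 0.0869% of all regions. A region kept in 0 of the 6 ENZ libraries could not be called toward ENZ. That held for 777 of the 1044 shared regions (74.4%) and for 22.4% of all merged regions. Such regions entered the test only through their DHT+ENZ calls, so both shares of the 310 are a description. Without a test, 583 of the 1044 shared regions (55.8%) were kept in more DHT+ENZ than ENZ libraries, 56 (5.36%) in fewer and 54 in equally many above 0. Of all merged regions 25.7% were kept in more and 29% in fewer. The rise was not particular to the shared regions. Of the 6002 regions opened by DHT in RES-A alone, 56.6% were kept in more and 7.81% in fewer. For the 3933 regions opened in LNCaP alone the shares were 33.7% and 10.7%.

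Between the sublines, Fisher's exact test of the same 12 libraries called many regions but few of the shared ones. Of the 310 tested, 11 were kept more often in RES-A, where the share over all regions was 20.4%, and 1 was kept more often in LNCaP, where it was 14.2%. The exact test gave a smallest adjusted p of 0.0127. A call in favor of a subline needed at least 2 of its 3 ENZ libraries to keep the region. That held for 37 of the 1044 shared regions in RES-A and 29 in LNCaP, beside 41.5% and 39.5% of all merged regions. Regions chosen for 0 calls in DMSO could thus hardly be called, and the low count does not show that the sublines agreed. The count of 12 was also unstable. It was 0 with a replicate block and with all deposited peaks, 1 when peaks were ranked by −log10 p, and 2 when the test was stratified by treatment or covered all regions kept in at least 1 library. With 1 library left out it ran from 8 to 30, and it exceeded 18 without LNCaP DMSO replicate 2 (25), LNCaP ENZ replicate 1 (21) or 2 (25), or RES-A ENZ replicate 1 (21), 2 (26) or 3 (30).

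Because an exact test on calls discards signal level, scaled pileup was also compared with limma. This comparison was added after the data had been seen. It used log2 scaled pileup, with no pseudocount, in 11 ENZ and DHT+ENZ libraries, leaving out the shallow replicate 1 of LNCaP ENZ. A region needed a deposited peak in at least 2 libraries of each group, which left 82289 regions, 753 of them shared regions. The other 291 shared regions lacked such peaks, and a library without a peak at a region was left out of that region's fit.

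In RES-A, addition of DHT to ENZ raised the signal at 150 of the 753 shared regions (19.9%; limma, adjusted p under 0.05) and lowered it at 0. Over all regions tested 2.1% rose. The median difference over the 753 regions was 0.46 on the log2 scale (1.38-fold), and 694 of them were above 0. Over all regions the median was 0.01, with 51.4% above 0. Of the shared regions 35.1% were at least 1.5-fold higher, as were 2.78% of all regions.

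In LNCaP, where ENZ had 2 libraries left, 10 of the 753 shared regions rose (1.33%) and 0 fell, beside 0.149% of all regions that rose. The median difference was 0.34 (1.27-fold), and 696 of the 753 were above 0. Over all regions it was 0.02, with 53.5% above 0. The share at least 1.5-fold higher was 22.3%, against 1.75% of all regions. In both sublines together, 653 of the 753 regions (86.7%) were above 0, compared with 32.2% of all regions.

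**Figure D4:**
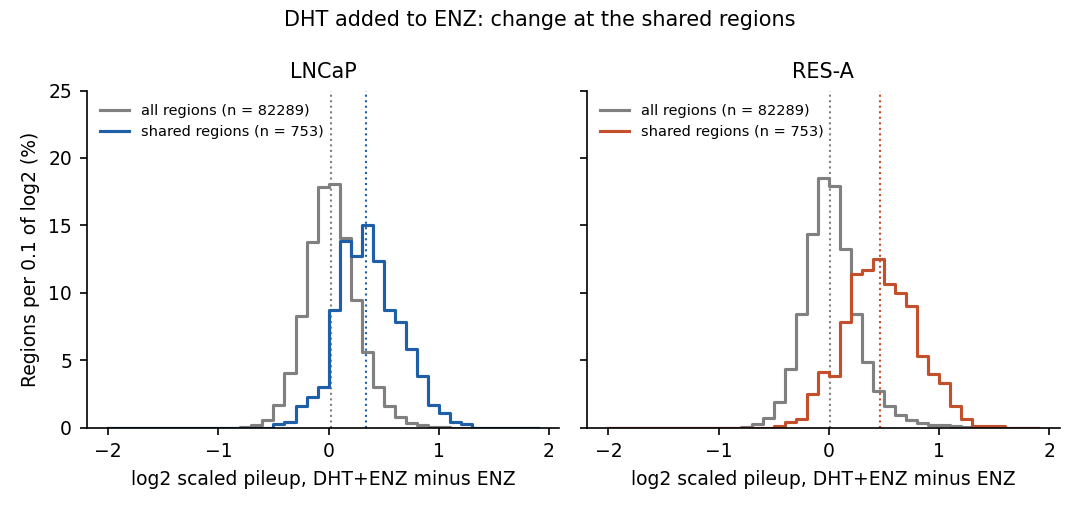
Distribution of the limma difference in log2 scaled pileup, DHT+ENZ minus ENZ (x axis), in LNCaP (left) and RES-A (right), as the percentage of regions per 0.1 of log2 (y axis). Colored lines are the 753 shared regions tested, gray lines all 82289 regions tested, and dotted lines the medians (0.34 and 0.46 for the shared regions, 0.02 and 0.01 for all).

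The larger number of calls in RES-A was not matched by a called difference between the sublines. For the interaction, the DHT+ENZ minus ENZ difference in RES-A minus that in LNCaP, limma called 0 of the 753 shared regions, and 0.00122% of all regions (1 region) were called higher. At an unadjusted p under 0.05 by limma, 36 of the 753 shared regions had a higher and 3 a lower difference in RES-A. Of all 82289 regions, 1741 (2.12%) had a higher and 1840 (2.24%) a lower one. The 4272 tested regions opened in RES-A alone leaned the same way as the shared ones, with 357 higher and 39 lower. The median interaction was 0.10 at the shared regions and -0.000785 over all regions. The approximate 95% interval of a single region's interaction had a median half-width of 0.62 on the log2 scale, so that only large differences could have been seen.

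The counts of calls by limma depended on the libraries and on the scale, while the direction did not. With the shallow library included, the calls were 0 in LNCaP and 62 in RES-A, beside 1.1% of all regions in RES-A. Without LNCaP ENZ replicate 2 or LNCaP DHT+ENZ replicate 1 the LNCaP count was 0, and without LNCaP ENZ replicate 3 or LNCaP DHT+ENZ replicate 3 it was 1 and 2. It was 5 without RES-A ENZ replicate 1 or RES-A DHT+ENZ replicate 2, and 6 without RES-A ENZ replicate 2. The RES-A count was 94, 72 and 78 without RES-A ENZ replicate 1, 2 and 3, and 98 without RES-A DHT+ENZ replicate 1. With fold enrichment over the local background in place of scaled pileup, the counts were 0 and 5, beside 0% and 0.119% of all regions. The medians were then 0.15 and 0.24, against -0.12 and -0.11 over all regions.

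A total of 7 shared regions were called in both sublines, which was 70.0% of the LNCaP calls and 4.67% of the RES-A calls. Over all regions 91 (0.111%) were called in both, which was 74.0% of the LNCaP calls and 5.28% of the RES-A calls. They were looked at after their values had been seen. chr6:26612594-26612970 had a scaled pileup of 22.5% and 24.7% with ENZ and of 54.0%, 50.0% and 45.6% with DHT+ENZ in LNCaP. In RES-A the ENZ values were 26.1%, 14.3% and 18.7%, and those with DHT+ENZ 44.3%, 38.9% and 54.4%. The limma differences were 1.08 ± 0.25 (SE) in LNCaP, with an adjusted p of 0.0427, and 1.25 ± 0.22 in RES-A, with an adjusted p of 0.000174.

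chr10:95155066-95155710, which was also among the 8 strongest regions with DHT, was called in both as well. In LNCaP it went from 32.5% and 32.9% under ENZ to 77.8%, 65.2% and 51.5% under DHT+ENZ. In RES-A it went from 31.9%, 29.4% and 37.3% to 55.7%, 66.7% and 69.6%. The differences by limma were 0.97 ± 0.21 (adjusted p = 0.0255) and 0.96 ± 0.19 (adjusted p = 0.000787). The ENZ and DHT+ENZ libraries of these regions did not overlap in either subline.

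The call with the smallest p in RES-A was chr8:75575204-75576081. Its scaled pileup was 20.3%, 12.6% and 16.0% under ENZ, compared with 45.7%, 48.6% and 48.1% under DHT+ENZ. The limma difference was 1.57 ± 0.21 (2.97-fold, adjusted p = 1.23e-06). In LNCaP this region already had 41.2% and 39.7% with ENZ in the deeper libraries and 61.9%, 44.6% and 58.8% with DHT+ENZ, a difference of 0.43 ± 0.24 by limma with an adjusted p of 0.689. Its interaction, 1.14 ± 0.32, had an adjusted p of 0.988 by limma. chr18:45883372-45884004 rose 2.75-fold in RES-A (limma, adjusted p = 3.32e-06) and was 1.93-fold higher in LNCaP (limma, adjusted p = 0.0668).

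The level at the shared regions could not be ordered between the sublines, because the order turned with the scale. On scaled pileup, limma called 47 of the 753 higher and 165 lower in RES-A than in LNCaP with DHT+ENZ, where 16.7% and 29.6% of all regions were called. With ENZ it called 26 higher and 179 lower, beside 15.5% and 26.5%. With fold enrichment the calls with DHT+ENZ were 234 higher and 7 lower, beside 33.9% and 3.68% of all regions. With ENZ they were 138 higher and 7 lower, beside 26.8% and 3.47%. The medians of the shared regions went from -0.16 to 0.30 with DHT+ENZ and from -0.28 to 0.21 with ENZ. Those over all regions turned alike, from -0.13 to 0.29 and from -0.12 to 0.27.

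The shared regions were divided into 3 equal groups of 348 by their mean pileup percentile in the 6 DHT libraries. These are values that the choice of regions had used, so the split is a description with no test. From the weakest to the strongest group, the mean share kept with DHT+ENZ was 16.2% ± 4.40 (SD, n = 3), 18.5% ± 9.43 and 32.8% ± 11.4 in LNCaP. In RES-A it was 17.3% ± 1.01, 21.8% ± 1.15 and 38.9% ± 3.15. In RES-A all libraries of the strongest group (37.1% to 42.5%) lay above all libraries of the other groups, while in LNCaP the strongest group (22.7% to 45.1%) overlapped the middle one (12.1% to 29.3%).

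With ENZ alone, the mean shares from the weakest to the strongest group were 8.62%, 5.94% and 5.94% in LNCaP and 4.98%, 4.79% and 6.13% in RES-A. Their ranges over the libraries overlapped in both sublines.

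**Figure D5:**
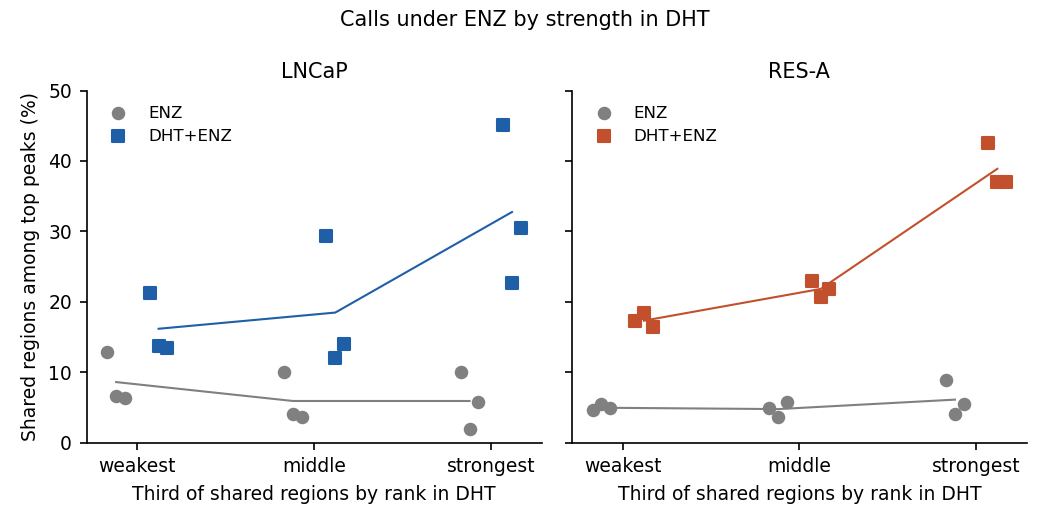
Share of shared regions kept (y axis, percent) with ENZ (gray circles) and DHT+ENZ (colored squares), in 3 groups of 348 regions ordered by pileup rank in DHT (x axis), for LNCaP (left) and RES-A (right). Points are libraries and lines join the means. With DHT+ENZ the strongest group reached means of 32.8% and 38.9%, while ENZ means stayed between 4.79% and 8.62%.

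The shared regions were also set beside the regions opened by DHT in 1 subline alone. The 3933 regions opened in LNCaP alone had a mean kept share in LNCaP of 11.9% ± 1.11 (SD, n = 3) with ENZ and 22.0% ± 3.31 with DHT+ENZ. The 6002 regions opened in RES-A alone had 12.4% ± 1.95 with ENZ and 34.6% ± 1.18 with DHT+ENZ in RES-A. In RES-A all 3 ENZ values of the shared regions (4.41% to 6.13%) lay below those of the RES-A-alone regions (10.2% to 13.8%). In LNCaP the ranges of both sets overlapped (4.21% to 11.0% and 10.6% to 12.6%), by the shallow library alone. In the deeper libraries the shared regions were at 4.21% and 5.27% and the LNCaP-alone regions at 10.6% and 12.4%.

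By limma, 20.2% of the 4272 tested regions opened in RES-A alone rose with addition of DHT to ENZ in RES-A, close to the 19.9% of the shared regions, with medians of 0.32 and 0.46. Of the 1616 tested regions opened in LNCaP alone, 0.186% rose in LNCaP, with a median of 0.15. Regions opened in RES-A alone rose in LNCaP at 1.40%, close to the 1.33% of the shared regions, with medians of 0.22 and 0.34. The difference between these sets was not tested. Of the 6002 regions opened in RES-A alone, 3242 (54.0%) were kept in at least 1 LNCaP DMSO library. Their mean kept share in the LNCaP DMSO libraries was 40.0%, near the 41.9% of all merged regions. Of the LNCaP-alone regions, 600 (15.3%) were kept in at least 1 RES-A DMSO library. Their mean kept share in the RES-A DMSO libraries was 9.92%, beside 42.0% of all merged regions.

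The peaks of both sublines lay at nearly the same place. The summits with DHT were a median of 21.0 bp apart between LNCaP and RES-A, and 83.0% of the shared regions had them within 50 bp. At the 30602 other regions kept in at least 2 of 3 DHT libraries of both sublines, the median was 16.5 bp and the share 89.5%. The shared regions were 248 to 1358 bp long, with a median of 503.5 bp, against 432 bp over all merged regions. A region kept in all 24 lists lay within 10 kb of 16.7% of the shared regions. The share was 15.2% over all 104198 regions not kept in every list, the shared ones included.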

How the data were processed

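Per the study's methods, single reads of 50 bp were mapped by the authors with bwa (0.7.8-r455) on hg19. Duplicate marking used Picard (1.118), and MACS2 (2.1.0) provided 1 peak list per library. Peak calling options were not given in the sources used here. The deposited lists hold for each peak the pileup (a signal, not scaled between libraries), the −log10 of p and q, and a fold enrichment over local background. Every list reached down to a −log10 q between 1.30 and 1.32, as deposited, so weaker signal is not recorded.

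Groups came from the sample labels. The shared regions and the sets compared with them were chosen with earlier results of these data known. Background was the lowest (pileup + 1) / fold − 1 of a library. Read totals were not used, so depth is known only in rank, and no counting intervals are given. Scaled pileup used the strongest deposited peak overlapping a region. Alternatives changed the number of peaks kept, their ranking, the q threshold, merging, chromosomes, the rule, the libraries and the test.

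Regions were tested by two-sided Fisher's exact tests over 12 libraries and, added later, by limma with a trended prior (limma 3.58.1, R 4.3.3), with Benjamini-Hochberg adjustment over all regions tested at 0.05. Both were tested on simulated data. Python 3.11.15, scipy 1.17.1 and pandas 2.3.3 were used. No p-value was computed for shares over the shared regions. Named regions were the 8 kept in all 6 DHT libraries with the highest mean pileup percentile, up to 4 per direction separated with DHT+ENZ and up to 3 with ENZ, and those at the border of the rule. Regions named from limma calls or kept in all 6 DHT+ENZ libraries were added after their values had been seen. No hg19 genome was used, so genes and sequences were not analysed here.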

Additional observations from a re-analysis of the deposited data

How the results depend on the processing

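Requiring 3 of 3 DHT libraries left 414 shared regions with 48 separated with DHT+ENZ, 2 with ENZ, and 7 exact test calls between sublines. With all deposited peaks, RES-A minus LNCaP was -5.43 points with DHT+ENZ and 2.47 with ENZ, 50 regions were separated with DHT+ENZ and 0 were called between sublines. Ranking by −log10 p gave 1 such call and 12 regions separated with ENZ, where autosomes alone gave 11. Counting any deposited peak as a call gave 16.6 points with ENZ. Between sublines, testing all regions kept in at least 1 library gave 2 calls, and stratifying by treatment also 2. Leaving out each library in turn gave 654 to 1280 shared regions, differences of -2.28 to 8.25 points with DHT+ENZ and -4.38 to 0.559 with ENZ, 60 to 130 and 3 to 15 separated regions, 8 to 30 calls between sublines, and 0 for DHT+ENZ against ENZ. The cause of these changes was not tested.

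The limma calls of DHT+ENZ over ENZ (10 in LNCaP, 150 in RES-A) became 0 and 5 with fold enrichment, and 0 and 62 with the shallow library, and in LNCaP 5 with each library centered. They ran from 0 to 11 and from 72 to 162 with each library left out, where a lone LNCaP ENZ library was assumed to vary like the other groups. RES-A minus LNCaP turned from -0.16 to 0.30 with DHT+ENZ and from -0.28 to 0.21 with ENZ on fold enrichment.

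The labels do not say whether a replicate number marks a shared experiment, and the libraries were treated as unpaired. Deviations of same-numbered libraries correlated at -0.0407 to 0.264 between ENZ and DHT+ENZ and at -0.0528 to 0.10 between sublines, which cannot decide it. With a replicate block the share differences were 3.54 and -1.53 points, the exact tests called 0 shared regions for DHT+ENZ against ENZ and 0 between sublines, and limma called 4 in LNCaP, 161 in RES-A and 0 for the interaction.

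Peaks below a library's threshold are not listed, so levels rest on 753 of 1044 regions and on few fragments in the shallow libraries. With 3 libraries per group, small differences between sublines could not be seen.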

Other observations

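The shared regions were spread over the genome. The nearest other shared region was a median of 653 kb away, 168 regions (16.1%) had another within 100 kb, and 876 stood alone. Joined at 100 kb, they formed 78 pairs and 4 triples. The tightest triple, on chromosome 11 (chr11:68265816-68274713), spanned 8.90 kb, and none of its regions was kept in any ENZ or DHT+ENZ library. The triple on chromosome 4 (chr4:110836881-110980209) spanned 143 kb and had 3 calls in LNCaP and 2 in RES-A with DHT+ENZ.

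Chromosome 19 held 5 shared regions, 0.239 times its share of all merged regions, and chromosome 22 held 6, a ratio of 0.457. Chromosome 18 held 42, a ratio of 1.63, and chromosome 13 held 32, a ratio of 1.36. These ratios were not tested.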
